A study of Homo sapiens with 18 samples.

Results

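ES8 is a Ewing sarcoma cell line, and the comparison described here set ES8 cells that carried a deletion allele of DNAJC17 against parental ES8 cells. DNAJC17 belongs to the J-domain proteins, the co-chaperones that direct HSP70 chaperones to particular tasks, and it also carries an RNA recognition motif (RRM). The rescue cells had been selected with hygromycin and stably expressed 3xFLAG-DNAJC17-dRRM, the FLAG-tagged protein without its RRM (called ΔRRM below), and received the guide RNA sgDNAJC17. The control cells had the parental genotype and received the non-targeting guide sgCTL. Both groups carried dCas9-KRAB, a repressor that a guide brings to a promoter, and were selected with puromycin for 72 h after guide transduction. The members were chosen by cell line, allele and guide from the labels, which gave 6 of the 18 RNA-seq libraries of the series, 3 of each group (A, B and C). ES8 knockdown cells (sgDNAJC17 without the allele, 3 libraries) and the same design in Rh30, an alveolar rhabdomyosarcoma line, were used only to set the values in context. The cells of a group were plated in triplicate, so p-values measure the spread between wells rather than between independently made lines. No library held the ΔRRM allele together with sgCTL, so the effects of the guide, the allele and its own drug selection cannot be told apart.

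DNAJC17 is found with the spliceosome, the complex that removes introns from pre-mRNA. The guide was directed just 5′ of the start of endogenous DNAJC17, whereas the lentiviral allele is driven by the EF1 promoter. Comparing ΔRRM with control therefore asks how near the transcriptome comes to that of control cells when the endogenous gene is repressed and a protein without the RRM takes its place.

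The 6 libraries held between 40031685 and 44814879 counts in genes. All 10 Ewing sarcoma markers listed for the check had counts in every library, and their summed level was 1.96e+03 to 2.02e+03 CPM (a gene's counts divided by the effective total of its library and scaled to a common size) with sgCTL and 1.82e+03 to 1.9e+03 CPM with ΔRRM. The lower sum lay in CCND1, the gene of cyclin D1 (1009, 966 and 997 CPM against 896, 781 and 850 CPM), which was not called, while 5 of the 10 markers were above control. The epithelial marker list summed to 352 to 358 CPM with sgCTL and 323 to 344 CPM with ΔRRM. Most of that difference lay in JUP (264 to 267 against 239 to 257 CPM), while KRT18 had 24.7 to 26.5 CPM with sgCTL and 31.5 to 35.9 CPM with ΔRRM, and neither passed the test. Among 20 rhabdomyosarcoma markers, PAX3 and FGFR4 were expressed in ES8, and the other 18 summed to 32.7 to 34.2 CPM with sgCTL, 33.4 and 33.8 CPM in ΔRRM A and B, and 41.3 CPM in ΔRRM C. The muscle genes CHRNA1 and MYMK had no counts in the other 5 of these libraries and 0.604 and 0.0483 CPM in ΔRRM C. Over 5 genes chosen after their values were seen, because Rh30 control cells had at least 50 CPM and ES8 control libraries had no counts, ΔRRM C held 0.257% of the Rh30 level, against 0.0198% and 0.0147% in ΔRRM A and B. In bulk RNA a lower level from fewer cells of a type and from less RNA per cell cannot be told apart. ΔRRM B stood apart in another way: its short genes were high and its long genes low, by a median of 0.19 and -0.23 on the log2 scale in quartiles 1 and 4 of protein-coding genes by length. The part of both in the results below was not tested, beyond the values given without each library.

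Few genes separated the rescue from control. Of 17199 genes tested, 16 were higher and 14 lower with ΔRRM (edgeR's quasi-likelihood test, Benjamini-Hochberg adjusted p under 0.05), which is 0.093% and 0.0814% of genes. Of these, 2 higher (0.0116%) and 4 lower (0.0233%) genes differed by 2-fold or more. In the knockdown, which shares the control libraries, 4701 of 17143 genes (27.4%) passed the same test, 13.6% higher and 13.8% lower, and 285 (1.66%) were higher and 49 (0.286%) lower by 2-fold. The rescue differed from the knockdown in 2516 of 17099 genes (14.7%), 7.35% higher and 7.36% lower. The counts of the rescue moved with the libraries used: 80 up and 70 down were called without ΔRRM B, 10 and 3 without ΔRRM C, 229 and 231 without ΔRRM A, and 2 or 3 up and 0 to 2 down without any single control library.

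Closeness was also measured without calls. For 14968 genes (87.0% of those tested) the whole 95% interval of the difference lay within 2-fold, and for 12373 (71.9%) within 1.5-fold. For 6 genes it lay wholly beyond 2-fold, among them DNAJC17, CCK and ENPP3. Over 9583 genes with at least 10 CPM, the median absolute log2 difference between a ΔRRM and a control library ran from 0.0668 to 0.185, with a median of 0.0931 over the 9 pairs. Pairs of control libraries differed by 0.0491 to 0.0636, and pairs of a ΔRRM and a knockdown library by 0.175 to 0.257. ΔRRM A lay 0.0668 to 0.0931 from the controls, ΔRRM C 0.08 to 0.101, and ΔRRM B 0.169 to 0.185. ΔRRM B was thus about as far from ΔRRM A (0.170) as from the controls. In the knockdown, library A lay 0.207 and 0.213 from B and C, which were 0.0483 apart. Knockdown A also had a trend with GC content. Its protein-coding genes had medians of -0.283, -0.082, 0.121 and 0.169 relative to the control mean in GC quartiles 1 to 4. Quartiles 1 and 4 stood at 0.032 and -0.100 in knockdown B and at 0.047 and -0.101 in knockdown C. The knockdown medians below are without a correction for this trend, and its part in them was not tested.

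**Figure D1:**
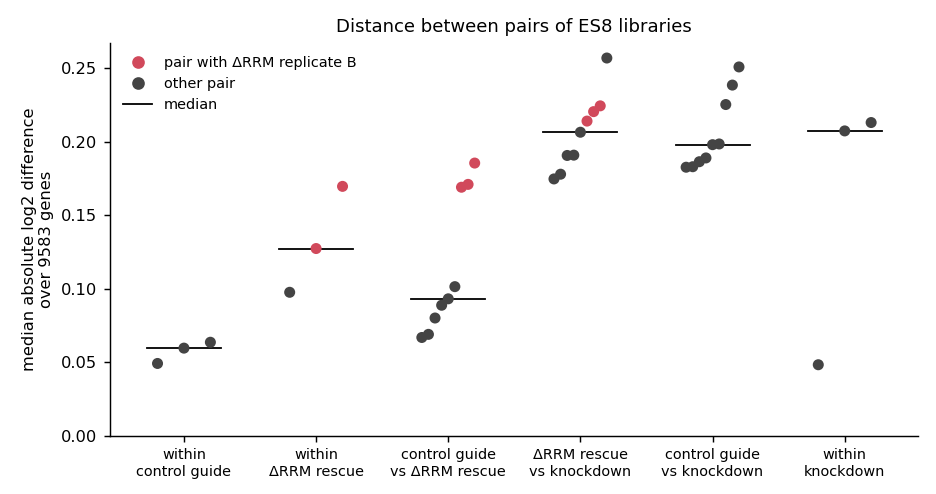
Each point is a pair of ES8 libraries, placed by the median absolute log2 difference in CPM over 9583 genes of at least 10 CPM, with a bar at the median of each class of pairs. Pairs of a control and a ΔRRM library have a median of 0.0931, between the pairs of control libraries (0.0596) and the pairs of control and knockdown libraries (0.198), and the pairs of a control library with ΔRRM replicate B (0.169 to 0.185) lie above those with ΔRRM A and C.

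DNAJC17 itself checked the design. Its level was 12.4, 13.9 and 13.7 CPM with sgCTL, 1.74, 2.14 and 1.69 CPM in the knockdown, and 337, 312 and 348 CPM with ΔRRM. The 3 groups did not overlap. The rescue stood 4.64 ± 0.08 (SE) above control on the log2 scale (adjusted p 1.4e-12), a 25-fold difference. Reads of the endogenous gene and of the lentiviral allele carry the same gene name in the counts, so repression of the endogenous gene cannot be read from this value.

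ZFYVE19, which encodes a regulator of the abscission checkpoint at the end of cell division, starts beside DNAJC17 on the opposite strand. It had 20.7, 23.2 and 21.0 CPM with sgCTL, 11.0, 14.0 and 12.1 CPM with ΔRRM, and 9.99, 9.67 and 9.73 CPM in the knockdown. Every ΔRRM library was below every control library and above every knockdown library. Against control the difference was -0.80 ± 0.10 on the log2 scale (adjusted p 0.0084) in the rescue and -1.15 (adjusted p 9.3e-05) in the knockdown, and the rescue and knockdown did not differ by the test (0.35, adjusted p 0.074). In Rh30 the difference with ΔRRM was -1.32 (adjusted p 5.6e-17). The guide had the same target in all these cells. The RefSeq starts of the 2 genes lie 384 bases apart, and each transcript runs over the start of the other, so reads there can be assigned to one gene only where counting uses the strand, which is not given in the sources used here. The 30 bases around each start, 15 on either side, are shown because the guide was placed at this promoter (RefSeq, GRCh38.p14, each on its own strand, DNAJC17 at chr15:40807459-40807488, minus, and ZFYVE19 at chr15:40807074-40807103, plus).
DNAJC17: agactcttgggagttgtagtacgaatccgt
ZFYVE19: gcagaggaggctagcgttccttgctgcctc

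The other genes with a start within 50 kb were not called. GCHFR, a regulator of tetrahydrobiopterin synthesis, had 12, 12.4 and 11.3 CPM with sgCTL and 11.8, 17.5 and 17.2 CPM with ΔRRM (0.38 on the log2 scale, adjusted p 0.29). C15orf62 and SPINT1 reached at most 2.15 and 0.428 CPM in these 6 libraries, with adjusted p of 0.67 and 0.52. PPP1R14D, SPINT1-AS1 and SUMO2P15 had too few counts for a test.

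Of the higher genes, CCK, the gene of the peptide hormone cholecystokinin, rose most after DNAJC17, from 1.73, 1.95 and 1.68 CPM to 5.09, 7.02 and 5.80 CPM, a 3.35-fold difference (1.74 ± 0.15 on the log2 scale, adjusted p 0.00044). SOX1, a transcription factor of neural progenitors, rose from 14.1, 12.1 and 12.7 CPM to 22.6, 23.9 and 21.6 CPM (0.80 ± 0.09, adjusted p 0.0032). In neither gene did a ΔRRM library reach down to a control library. COL2A1, the main collagen of cartilage, rose from 11.1, 11.1 and 10.6 CPM to 17.2, 17.3 and 18.5 CPM (0.70 ± 0.08, adjusted p 0.0061). CDH2, which encodes N-cadherin, rose from 14.7, 16.5 and 16.1 CPM to 26.1, 21.4 and 25.2 CPM (0.62 ± 0.09, adjusted p 0.015), and it was lower, not higher, in the knockdown (-0.55, adjusted p 0.0019). The parathyroid hormone receptor gene PTH1R, the neuronal membrane gene GPM6A and the G-protein regulators RGS5 and GPSM3 rose by 0.58 to 0.72, and the solute carrier gene SLC43A3 by 0.65. Genes listed only by identifier, ENSG00000276170 and ENSG00000251460, rose by 0.85 and 0.40. In the knockdown CCK, SOX1, COL2A1, CDH2, PTH1R, GPM6A, RGS5, GPSM3 and SLC43A3 were not higher than control by the test, and CDH2 and SLC43A3 were lower.

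A smaller set moved the same way in both. TPT1, which encodes the abundant translationally controlled tumour protein, had 887, 862 and 867 CPM with sgCTL, 1098, 1250 and 1078 CPM with ΔRRM, and 1173, 1140 and 1101 CPM in the knockdown. It was 0.39 ± 0.06 above control in the rescue (adjusted p 0.030) and 0.38 above it in the knockdown (adjusted p 0.00066). CCNB1IP1, a ubiquitin ligase gene, was 0.40 above control in the rescue (adjusted p 0.04999) and 0.59 in the knockdown. The ubiquitin ligase gene MARCHF4 had 1.84, 1.5 and 1.51 CPM with sgCTL and 2.93, 3.43 and 2.86 CPM with ΔRRM, and was 0.93 and 0.96 above control in rescue and knockdown. For these 3 genes the rescue did not differ from the knockdown by the test (adjusted p 0.92, 0.21 and 0.94). GTF3A, the RNA polymerase III factor for 5S ribosomal RNA, rose by 0.43 (adjusted p 0.024), from 104, 102 and 108 CPM to 135, 152 and 134 CPM, and was at control level in the knockdown (-0.04, adjusted p 0.64).

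The largest falls were in genes of low level. ENPP3, an ectoenzyme of nucleotide breakdown, had 1.93, 2.26 and 2.29 CPM with sgCTL and 0.812, 0.775 and 0.505 CPM with ΔRRM (-1.63 ± 0.22, adjusted p 0.0091). SYCP1, a synaptonemal complex protein of meiosis, fell from 11.0, 10.1 and 10.8 CPM to 6.17, 4.95 and 3.46 CPM (-1.13 ± 0.16, adjusted p 0.0094). With all 9 ES8 libraries in 1 fit SYCP1 did not pass (adjusted p 0.23), and its knockdown libraries had 5.6, 16.6 and 14.5 CPM. TRIM47 and MAB21L3 fell by 1.12 and 1.11. In all 4 genes every ΔRRM library lay below every control library, as in 10.1% of all genes tested. The knockdown did not pass the test against control in any of them (adjusted p 0.44, 0.65, 1.00 and 0.78). CCND2, the gene of cyclin D2, stood at 31.6, 31.2 and 30.1 CPM with sgCTL and 21.9, 21.8 and 20.7 CPM with ΔRRM (-0.53 ± 0.07, adjusted p 0.0091), and at 43.1 to 45.0 CPM in the knockdown (0.50, adjusted p 0.00092). It was thus below control in the rescue and above control in the knockdown. The collagen gene COL9A3 and the chromatin remodeller gene CHD5 showed the same order, at -0.60 each in the rescue and 0.33 and 0.36 in the knockdown. NRDC, a metalloendopeptidase gene, was the most abundant gene lower in the rescue (429, 430 and 454 CPM against 356, 344 and 334 CPM). The remaining genes lower in the rescue were TMEM119, NOTUM, a Wnt-inactivating enzyme, CPNE7, MYPN, a sarcomere protein, and HR, a corepressor, at -0.88 to -0.59.

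**Figure D2:**
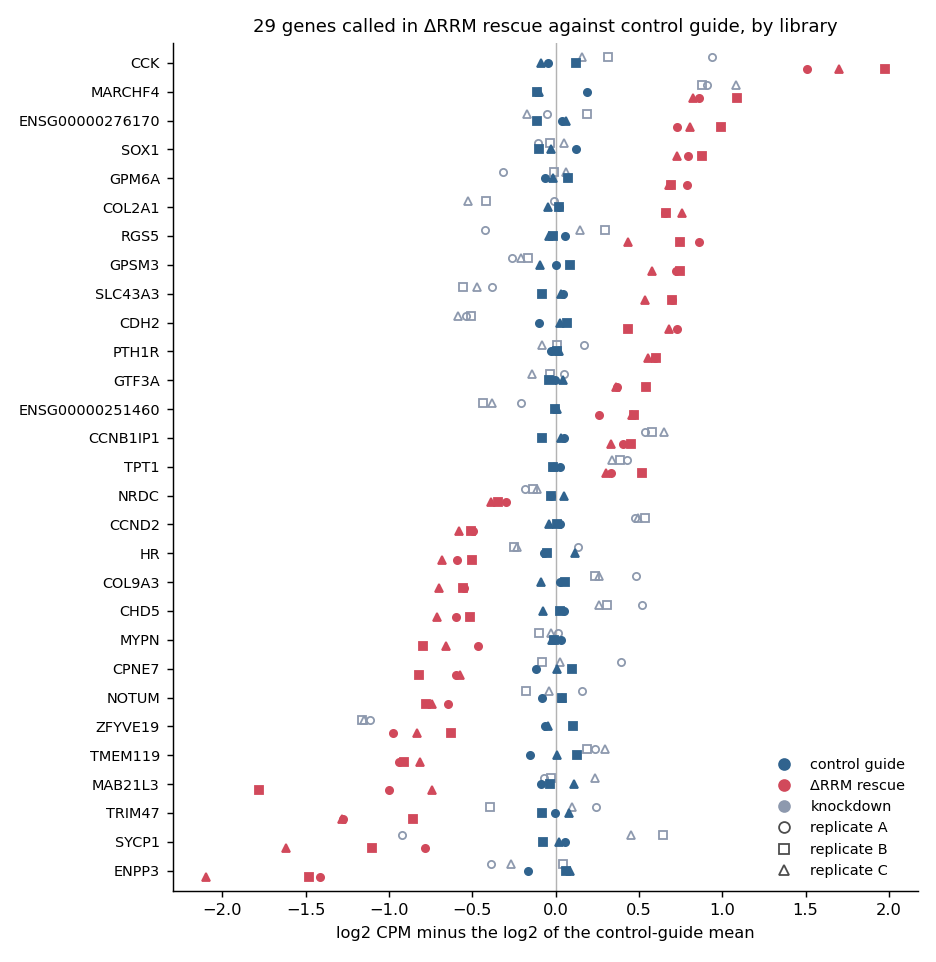
The log2 CPM of each ES8 library minus the log2 of the control-guide mean is drawn for the 29 genes called in ΔRRM rescue against control other than DNAJC17, with open symbols for the knockdown. In each of these genes the ΔRRM libraries lie to one side of all control libraries, from -1.63 for ENPP3 to 1.74 for CCK in the fitted difference.

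Of all 17199 genes tested, 1794 (10.4%) had every ΔRRM library above every control library and 1731 (10.1%) every one below, so that lack of overlap alone, which holds for all 30 called genes, is a weak criterion. Beyond the called genes, the furthest from control among those of at least 10 CPM were EPPK1 (-0.61, adjusted p 0.14), RORB (-0.56, adjusted p 0.11) and POMK (-0.56, adjusted p 0.38) below, and POGLUT2 (0.45, adjusted p 0.072), CENPV (0.45, adjusted p 0.053) and KRT18 (0.43, adjusted p 0.057) above. POMK, an O-mannosyl kinase gene, rested on ΔRRM B: it had 14.8, 14.8 and 14.6 CPM with sgCTL and 13.1, 4.51 and 12.5 CPM with ΔRRM. None of these 6 passed the test.

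Some gene classes that the knockdown moved had a median near 0 in the rescue, and others, described further on, did not. The snoRNA and scaRNA genes, whose products guide modification of ribosomal and spliceosomal RNA, had a median log2 difference of 0.785 in the knockdown (9 of 30 tested higher) and -0.04 in the rescue (32 tested, 0 called). SNORD14E had 0.576, 0.475 and 0.415 CPM with sgCTL, 2.48, 2.39 and 2.58 CPM in the knockdown, and 0.344, 0.470 and 0.385 CPM with ΔRRM. The ΔRRM libraries overlapped the control libraries, and none came near the knockdown. Poly-A selected libraries see such small RNAs poorly, and these genes lie at low counts. Mitochondrially encoded genes had a median of 0.602 in the knockdown (11 of 13 higher) and -0.02 in the rescue. The ΔRRM libraries did not lie together, with levels of 0.080, 0.060 and -0.167 in A, B and C. The rescue median ran from -0.05 to 0.08 with 1 library left out. MT-CO2, a cytochrome oxidase subunit, had 1296, 1317 and 1267 CPM with sgCTL, 1350, 1559 and 1323 CPM with ΔRRM, and at least 2024 CPM in the knockdown. Its ΔRRM libraries were thus above every control library, unlike the median of the class. Intronless protein-coding genes had medians of 0.284 and 0.04 in knockdown and rescue.

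Lists lower in the knockdown were S phase, cholesterol and matrix genes. The S phase and replication list had a median of -0.237 in the knockdown (17 of 39 lower, 1 higher) and 0.01 in the rescue, and RRM2, the ribonucleotide reductase subunit that supplies DNA precursors, was at 418, 409 and 427 CPM with sgCTL and 441, 426 and 418 CPM with ΔRRM. Cholesterol synthesis had medians of -0.278 and 0.06, and extracellular matrix and adhesion of -0.284 and 0.04, with CDH2 the 1 called gene of 33 tested. For FDPS, an enzyme of the mevalonate pathway, the control libraries held 215, 222 and 220 CPM, the knockdown 187, 170 and 169 CPM, and the rescue 234, 273 and 233 CPM. The rescue libraries thus lay above the controls, though not past the test (0.17, adjusted p 0.34).

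**Figure D3:**
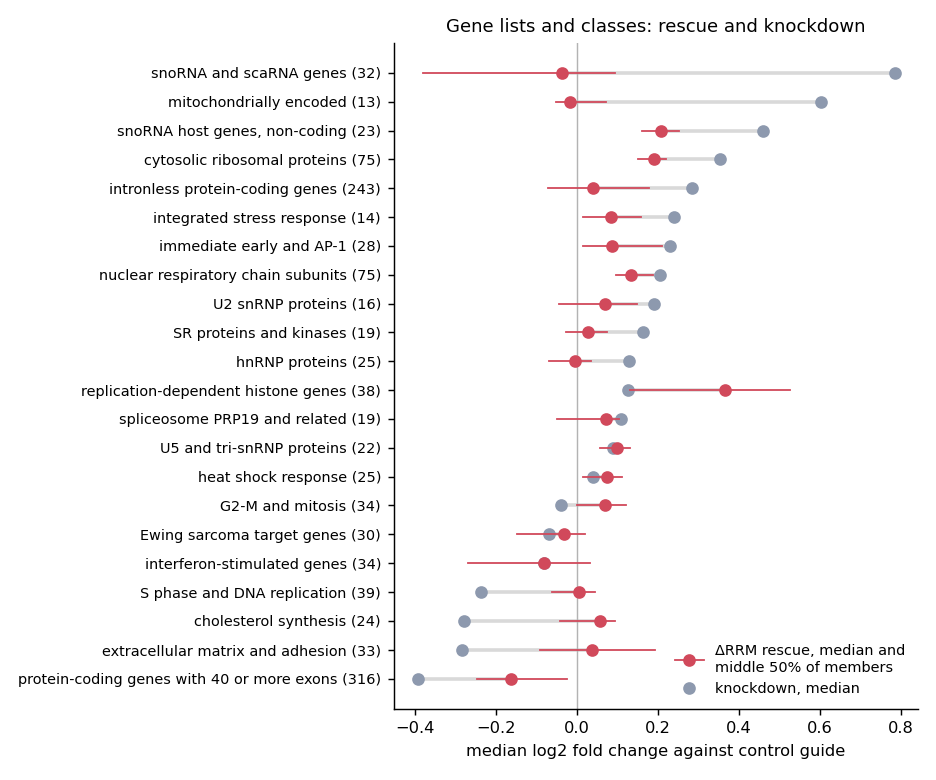
For 22 gene lists and classes (members tested in parentheses), the median log2 difference from control is drawn for the rescue (red, with the middle 50% of members) and the knockdown (grey), which share the control libraries. The knockdown medians run from -0.394 to 0.785, and the rescue medians from -0.162 (genes with 40 or more exons) to 0.366 (replication-dependent histone genes).

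The integrated stress response, the programme that lowers translation and induces ATF4, had a median of 0.240 in the knockdown (6 of 14 higher) and 0.08 in the rescue, where 0 passed the test. The list level was 0.021, 0.149 and 0.078 in ΔRRM A, B and C and up to 0.021 in the controls, and the median was 0.033 without ΔRRM B. PPP1R15A, whose product reverses the block in translation, had 53, 53.8 and 53.5 CPM with sgCTL, 58.5, 67.3 and 62.0 CPM with ΔRRM and 108 to 114 CPM in the knockdown. All ΔRRM libraries lay above the controls and below the knockdown, and the difference from control did not pass the test (0.23, adjusted p 0.26) whereas that from the knockdown did (-0.83, adjusted p 0.00049). CHAC1, a glutathione-degrading enzyme of the same programme, had 6.25, 7.03 and 6.14 CPM with sgCTL, 8.51, 8.97 and 8.83 CPM with ΔRRM and 12.8 to 15.6 CPM in the knockdown (0.44 from control, adjusted p 0.12). The heat shock list had medians of 0.07 (rescue) and 0.04 (knockdown). In the rescue 22 of its 25 genes were above control and 0 were called, with 19 above control after a correction for GC content and length. In 8 of 25 (32%) every ΔRRM library lay above every control library, against 10.4% of all genes. The list level was 0.061, 0.106 and 0.018 in ΔRRM A, B and C and up to 0.022 in the controls. HSPA8, the constitutive HSP70 of the cytosol, had 2574, 2524 and 2578 CPM with sgCTL and 2550, 2927 and 2810 CPM with ΔRRM (0.11, adjusted p 0.43), and it was lower in the knockdown (-0.30, adjusted p 0.0015). The J-domain proteins other than DNAJC17 had a median of 0.01, with 0 of 41 called. Interferon-stimulated genes lay slightly below control, with a median of -0.08 in the rescue and -0.08 in the knockdown and list levels of -0.08, -0.10 and -0.16 in the 3 ΔRRM libraries, and 0 of 34 were called.

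Spliceosomal lists differed from control by less than 0.1. The medians were 0.07 for PRP19 and related proteins (19 tested), 0.10 for U5 and tri-snRNP proteins (22), 0.07 for U2 snRNP proteins (16), 0.03 for SR proteins and kinases (19) and -0.01 for hnRNP proteins (25), with 0 called. In the same order, 12, 19, 11, 11 and 11 genes of these lists were above control, against 49.9% of all genes tested. SF3B4, a subunit of the complex that recognises the branch point, had 318, 319 and 300.0 CPM with sgCTL, 308, 347 and 337 CPM with ΔRRM and 538, 464 and 458 CPM in the knockdown. The rescue overlapped control there and lay below the knockdown (-0.55, adjusted p 0.0030). Of the 7 genes with skipped exons listed by the study, which picked them from these samples, 0 were called. GINS1, a subunit of the replicative helicase, had 58.4, 55.6 and 59.1 CPM with sgCTL and 56.2, 58.2 and 55.4 CPM with ΔRRM. These are gene counts and do not show which exons were used.

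Transcripts that the study listed as moved in both lines are not independent of these samples. Of the 13 with a symbol and enough counts, 0 were called in the rescue against control. Against the knockdown 12 were called, each with the sign of its knockdown change turned, and the exception was RASL11A, a Ras-like GTPase gene (-0.63, adjusted p 0.33). OVGP1 had 0.997, 1.21 and 1.03 CPM with sgCTL, 1.48, 1.60 and 1.49 CPM with ΔRRM and 4.80, 4.06 and 3.77 CPM in the knockdown. Its ΔRRM libraries lay between the other groups (0.50 from control, adjusted p 0.33). Chosen instead in Rh30, by a 2-fold rise after knockdown there (118 genes, 0.767%), the 80 genes with enough counts for a test here had a median of 0.06 in the rescue and 0.862 in the ES8 knockdown, and 79 of the 121 genes (0.786%) with a 2-fold fall there had -0.06 and -0.170. Rh30 and ES8 share no libraries.

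Among groups of genes with small shifts of one sign, the cytosolic ribosomal proteins were the most uniform. All 75 were above control, by a median of 0.19 on the log2 scale (1.14-fold), from 0.08 to 0.38. Reads of these genes can be split with their many pseudogene copies, so single values are uncertain. None was called, and 53 had an unadjusted p under 0.05, against 1170 of 17199 genes (6.8%) higher and 1138 (6.62%) lower at that p in all. Of the 2344 protein-coding genes in length quartile 1, 435 were higher at that p. In 48 of 75 (64%) ribosomal protein genes the ΔRRM libraries lay above every control library, against 10.4% of all genes and 23.3% of length quartile 1. RPS2 had 3035, 3099 and 2861 CPM with sgCTL and 2979, 3720 and 3326 CPM with ΔRRM, so that ΔRRM A lay within the controls. RPL21, the furthest from control, had 278, 267 and 279 CPM with sgCTL and 339, 406 and 326 CPM with ΔRRM (0.38, adjusted p 0.098). As a list, the level relative to the control mean was 0.066, 0.358 and 0.126 in ΔRRM A, B and C and between -0.017 and 0.011 in the controls. The shift was thus largest in ΔRRM B, the library with high short genes, and after a correction of each library for GC content and length it was 0.058, 0.288 and 0.100. In the knockdown the median was 0.353, with 65 of 75 called.

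Non-coding snoRNA host genes, the transcripts whose introns carry snoRNAs, shifted alike, by a median of 0.21 over 23 genes, 21 of them above control and 0 called. GAS5 had 202, 190 and 198 CPM with sgCTL, 226, 270 and 240 CPM with ΔRRM and 338 to 355 CPM in the knockdown. Each ΔRRM library stood above the controls, though the difference did not pass the test (0.32, adjusted p 0.12). The list level was 0.144, 0.321 and 0.096 in the ΔRRM libraries. Nuclear-encoded subunits of the respiratory chain had a median of 0.13, with 73 of 75 above control, and list levels of 0.006, 0.286 and 0.101. In ΔRRM A they were thus at control level. After the correction the median was 0.11 and the levels -0.009, 0.231 and 0.092. Of all genes tested 49.9% were above control, and of the shortest protein-coding genes (length quartile 1) 81.2%, with a median of 0.09. Genes with 40 or more exons leaned the other way (-0.162 over 316 genes, of which 1 was higher and 1 lower by the test, against -0.394 in the knockdown with 189 of 314 lower), with levels of -0.019, -0.375 and -0.084. That median was -0.073 after the correction for GC content and length and -0.061 without ΔRRM B.

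Ribosomal protein genes and many snoRNA hosts start with a tract of pyrimidines, the terminal oligopyrimidine motif, which places their translation under control of mTOR signalling. The letters CTTTC, the letters CTTTT and the letters CTTCC, whose matches can overlap, were each searched on the transcript's strand within 15 bases on either side of the RefSeq start. At least 1 of them stood in 44 of 60 ribosomal protein promoters that matched the table (73.3%) and 11 of 19 snoRNA host promoters (57.9%), but in 15 of 61 respiratory chain promoters (24.6%). These sets hold only genes tested here, of which 14.8% of 12118 promoters had a match, against 14.2% of all 27305 promoters. These 30-base windows show the match in capitals for 3 ribosomal protein genes, TPT1, the host gene SNHG5 and the respiratory chain gene COX7C, which holds overlapping matches, and 2 genes with no match, the ribosomal protein gene RPL3 and the host gene GAS5 (GRCh38.p14, each on its own strand, RPS6 at chr9:19380222-19380251, RPL41 at chr12:56116618-56116647, RPLP1 at chr15:69452803-69452832, TPT1 at chr13:45341169-45341198, SNHG5 at chr6:85678719-85678748, COX7C at chr5:86617926-86617955, RPL3 at chr22:39319609-39319638 and GAS5 at chr1:173869031-173869060).
RPS6: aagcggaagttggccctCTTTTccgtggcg
RPL41: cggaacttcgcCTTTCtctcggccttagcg
RPLP1: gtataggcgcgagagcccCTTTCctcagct
TPT1: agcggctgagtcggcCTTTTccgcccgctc
SNHG5: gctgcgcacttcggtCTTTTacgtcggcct
COX7C: ccatttcccatCTTTCTTTTcagtccttgc
RPL3: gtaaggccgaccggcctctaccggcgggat
GAS5: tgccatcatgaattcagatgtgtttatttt
Only the first listed RefSeq start of each gene was searched, so a gene with no match, such as RPL3 or GAS5, could hold one at another start. The letters describe the groups and do not show how a gene came to differ.

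Replication-dependent histone genes, whose mRNAs normally end in a stem-loop rather than a poly-A tail, had a median of 0.37 over 38 genes, 35 of them above control and 0 called. Their median level was 0.284, 0.384 and 0.298 in the 3 ΔRRM libraries and -0.027 to 0.067 in the controls. Here the 3 ΔRRM libraries lay together, apart from the controls. H2BC12, the most abundant, had 57.9, 55.6 and 51.8 CPM with sgCTL and 59.7, 64.6 and 62.9 CPM with ΔRRM (0.18, adjusted p 0.31). H3C11 had the largest difference, from 0.0886, 0.0475 and 0.0437 CPM to 0.517, 0.282 and 0.313 CPM (2.56, adjusted p 0.097). Its control levels lay below the filter on low counts, which it passed only through the ΔRRM libraries, so its value is no support for the class. H1-4, H3C7 and H2BC10 also needed their ΔRRM libraries to pass the filter. H2BC10, for example, had 0.0886, 0.261 and 0.0656 CPM with sgCTL. The 35 of 38 genes and the median of 0.37 include these genes and H3C11, so both depend in part on the filter. Poly-A selection leaves only few reads of this class, and the median was 0.25 over genes with at least 10 counts in every library. In the knockdown the class was at 0.305, 0.056 and -0.021.

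**Figure D4:**
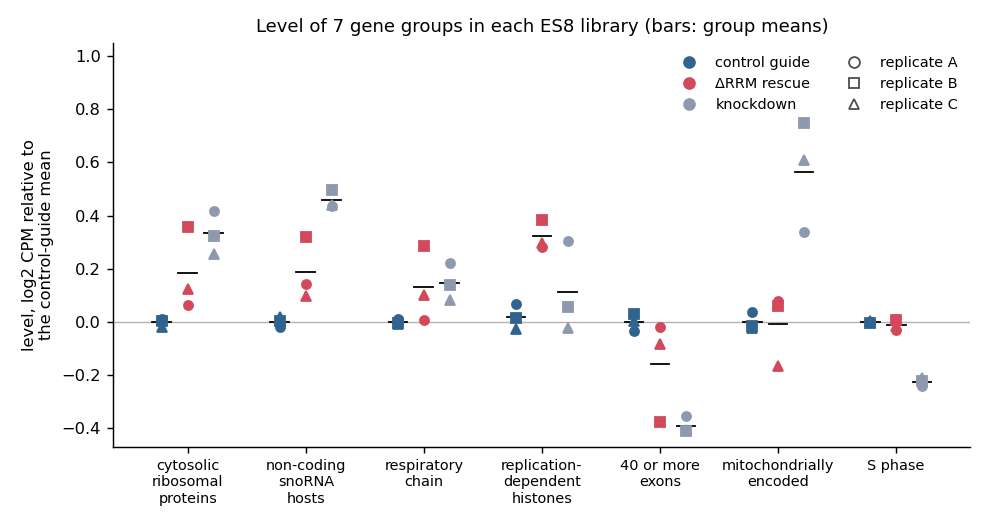
The level of 7 gene groups (mean of members, or median for histone and 40-exon genes) relative to the control-guide mean is drawn for each ES8 library, with bars at group means. ΔRRM replicate B holds the highest ribosomal protein (0.358) and respiratory chain (0.286) level of the rescue and the lowest level of genes with 40 or more exons (-0.375), while the 3 ΔRRM libraries lie together for histone genes (0.284 to 0.384).

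A shift by chromosome, looked for after the values were seen, stood on chromosome 13. Of its 146 protein-coding genes with at least 10 CPM, 128 were above control, with a median of 0.16 (1.12-fold), while the medians of the other chromosomes lay between -0.04 and 0.04. Relative to the control mean the chromosome's median was 0.254, 0.089 and 0.142 in ΔRRM A, B and C and between -0.038 and 0.017 in the controls. After the correction for GC content and length, the ΔRRM libraries came to 0.219, 0.169 and 0.193, with 139 of 146 genes above control, and the other chromosomes to medians between -0.01 and 0.02. The medians of the 11 windows of 10 Mb that hold such genes ran from 0.10 to 0.22, of which 3 windows held only 1, 2 and 4 genes and the others 8 to 29. The called genes TPT1, GTF3A and SOX1 lie there, as does RPL21. IPO5, an importin gene, had 394, 379 and 385 CPM with sgCTL and 441, 398 and 432 CPM with ΔRRM, and ANKRD10 had 20.3, 19.7 and 22.2 CPM and 29.4, 27 and 26 CPM. Both were above every control library without passing the test (adjusted p 0.36 and 0.090). Against the knockdown the median of the 146 genes was 0.309, with 56 higher and 5 lower by the test, and the knockdown itself lay at -0.138 from control. These values of the knockdown are without the correction, and the part of the GC trend of knockdown A in them was not tested. DNA copy number was not measured.

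**Figure D5:**
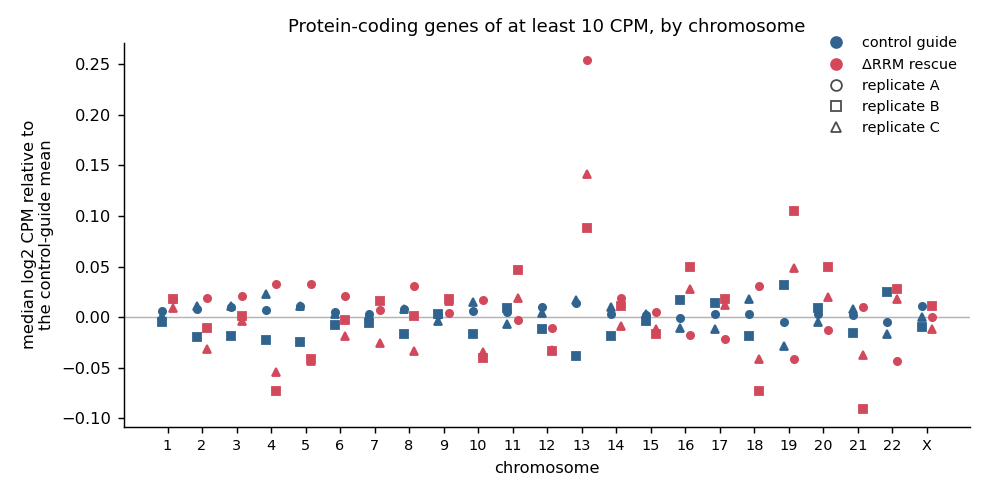
The median log2 CPM of protein-coding genes of at least 10 CPM, relative to the control-guide mean, is drawn for each chromosome in the control and ΔRRM libraries. Chromosome 13 stands at 0.254, 0.089 and 0.142 in the ΔRRM libraries, and the fitted medians of the other chromosomes lie between -0.04 and 0.04.

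The cell lines differed in how near the same allele came to control. In Rh30, 10626 of 15442 genes (68.8%) differed between ΔRRM and sgCTL, 33.8% higher and 35% lower, and 1028 (6.66%) were higher and 512 (3.32%) lower by 2-fold. The Rh30 comparison had a trend with GC content and length, with medians from 0.328 to -0.482 over GC quartiles and from 0.326 to -0.371 over length quartiles. The summed rhabdomyosarcoma markers in Rh30 were 4.86e+03 to 5.11e+03 CPM with sgCTL and 2.82e+03 to 2.99e+03 CPM with ΔRRM. Their part in the difference between the lines was not tested. A test of the difference between the lines called 7803 of 18854 genes (41.4%). By edgeR's test of that interaction, TPT1 was 0.39 above control in ES8 and 1.32 above it in Rh30 (interaction -0.93, adjusted p 3.5e-07), and CCNB1IP1 0.40 and 1.19 (interaction -0.80, adjusted p 7.7e-07). The ribosomal proteins had medians of 0.19 in ES8 and 0.980 in Rh30. SLC43A3 was higher in ES8 and lower in Rh30 (0.65 and -0.42, interaction 1.07, adjusted p 7.9e-07).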

How the data were processed

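RNA was poly-A selected, made into NEBNext Ultra libraries and sequenced. Per the submitters' processing notes, the authors trimmed reads with Trimmomatic 0.36, aligned them with STAR 2.5.2b and counted them per gene with featureCounts of Subread 1.5.2. The notes name GRCh38, whereas the methods name hg19, and the strand setting of the counting is not given in the sources used here. The deposited values are raw counts per Ensembl gene, without normalization, and 55082 of 57500 genes matched the annotation used for classes.

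Groups came from the labels. The tool for the counts was edgeR 4.0.16, run under R 4.3.3 (TMM, filterByExpr, quasi-likelihood test, two-sided, Benjamini-Hochberg adjusted), on the 6 libraries of each comparison without covariates. A gene was called at an adjusted p under 0.05. CPM values of ES8 libraries share one TMM scale, except those of the marker check, which use each library's own total. The interaction of line and rescue was fitted on 12 libraries. Lists and classes are described by counts and medians, and list levels are relative to the control mean. Named genes were DNAJC17, genes within 50 kb of its start, every called gene, the 10 uncalled genes furthest from control in each direction with at least 10 CPM, up to 4 members of each list, and genes the study had listed. The members and lists were chosen with earlier results of these data known. On simulated counts of this comparison, drawn for 16869 genes with 200 changed, 42% of 1.25-fold, 84% of 1.5-fold, 96% of 2-fold and 100% of 4-fold changes were called, with 7 false calls. The changed genes were drawn only above a minimum level. Genes were drawn independently, without the length shift of ΔRRM B or other deviations that genes share, so these rates need not hold for the real libraries. Alternatives were DESeq2 1.42.0, other scalings, filters and thresholds, a replicate block, a correction for GC content and length, and leaving out each library. Library totals of 40031685 to 44814879 counts leave genes of low CPM, such as snoRNA and histone genes, with the least precise values.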

Additional observations from a re-analysis of the deposited data

Results flagged for a closer look

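The effect of the ΔRRM rescue against control differed between ES8 and Rh30 for 7803 of 18854 genes (edgeR's quasi-likelihood test of the interaction, Benjamini-Hochberg adjusted p under 0.05). Of the 30 genes called in ES8, 13 passed this test, a share near the 41.4% of all genes, so this count is not particular to the called genes. The log2 difference in ES8 minus that in Rh30 was negative for CCNB1IP1 (-0.80), CCND2 (-0.30), DNAJC17 (-0.35), ENPP3 (-2.10), GTF3A (-0.61), MYPN (-0.72), NRDC (-0.26) and TPT1 (-0.93). It was positive for GPSM3 (0.80), MARCHF4 (1.26), PTH1R (0.86), SLC43A3 (1.07) and ZFYVE19 (0.52). ENPP3 had too few counts in Rh30 for a test there, so its difference rests on low levels. For DNAJC17 the value compares the expression of the allele, over endogenous transcript, in the 2 lines.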

How the results depend on the processing

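The 30 calls (16 up, 14 down) rest on a small share of genes near the threshold. Genes up and down numbered 9 and 7 at an adjusted p under 0.01, 1170 and 1138 at an unadjusted p under 0.05, 2 and 4 with a 2-fold change, 56 and 66 with DESeq2, 192 and 327 without a filter on low counts, 65 and 63 after the correction for GC content and length, and 35 and 39 with the replicate block added to that correction. The replicate block alone gave 44 and 58, and the letters A to C do not pair the libraries by any source (correlations of same-letter deviations between ΔRRM and sgCTL of 0.011, 0.022 and -0.022). With 1 library left out, genes up ranged from 2 to 229 and genes down from 0 to 231. The libraries that decide this are named in the report. Of the 30 genes, 20 kept the call under every setting that used all libraries, 2 (DNAJC17 and CCK) with each library left out, and 0 changed sign. The 10 others were NRDC, SYCP1, RGS5, ENSG00000251460, HR, CPNE7 and CCNB1IP1, lost with all 9 ES8 libraries in 1 fit, MAB21L3 and MARCHF4, lost with library size alone, and CHD5, lost with the block and correction together. Without sgCTL A, B or C, 5, 2 and 2 of the 30 calls were kept, against 30, 30 and 13 without ΔRRM A, B or C.

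The knockdown count of 4701 became 2276 at an adjusted p under 0.01, 334 with a 2-fold change, 7262 after the GC and length correction, 7085 with the block too, and 2502 to 7994 with 1 library left out. ΔRRM against the knockdown (2516) gave 812, 5160 (unadjusted), 336 (2-fold), 3878 with all 9 ES8 libraries in 1 fit, 1353 with the replicate block, 5406 after the correction, 4547 with both, and 1070 to 3374 with 1 library left out. The interaction (7803) gave 1255 with a 2-fold change and 7070 to 8392 with 1 library left out. The histone median of 0.37 became 0.25 with at least 10 counts in every library, 0.29 after the correction and 0.27 to 0.32 with 1 library left out. The cause of these shifts was not tested. Leaving out 1 library gave medians of 0.10 to 0.24 for ribosomal proteins, 0.05 to 0.20 for respiratory chain subunits, 0.12 to 0.25 for snoRNA hosts and 0.11 to 0.20 for chromosome 13, so none changed direction.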

Other observations

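Genes up 2-fold after knockdown in ES8 had a median of 0.19 in the rescue over the 187 of 285 genes with enough counts for a test, with 0 called, against 1.27 in the knockdown, and genes down 2-fold had -0.24 over 49 genes, against -1.25. The 2 comparisons share the control libraries, so the sign of these values is not independent of how the genes were chosen. Immediate early and AP-1 genes, which respond to growth signals within minutes, had a median of 0.09 in the rescue (22 of 28 above control, 0 called) and 0.231 in the knockdown (9 higher, 1 lower). Nuclear exosome subunits and adaptors (21 tested), nonsense-mediated decay factors (17) and intron lariat disassembly factors (9) had medians of 0.04, 0.00 and 0.00, with 0 called. Hypoxia and glycolysis genes (29) and p53 targets (27) had medians of 0.01 and -0.03, also with 0 called. Long non-coding genes had a median of -0.02 over 2014 genes, 2 of them higher by the test, and pseudogenes -0.03 over 818.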
